A study of Mus musculus with 28 samples.

Results

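The genes described here are transcriptional targets of the tumour suppressor p53 and genes of the apoptosis machinery. The list held 38 genes and was read on Affymetrix whole-transcript arrays of mouse cells, in the probe set that the platform annotation ties to that gene alone (the one with the highest mean where a gene had several). Of these 38 genes, 35 had such a probe set, 1 each, among 19938 genes measured this way. Trp53, which encodes p53 itself, and Bax, a pore former of the outer mitochondrial membrane, had no probe set under their names. Cdkn1a, the p53 target that encodes the cell cycle inhibitor p21, shared its probe set with another gene. These 3 genes are not reported.

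p53 is a transcription factor that is kept scarce by the ubiquitin ligase Mdm2 and accumulates when DNA breaks or stalled replication activate damage kinases. It binds response elements made of short paired half-sites and raises genes that stop the cell cycle, repair DNA, restrain growth signalling or prepare cell death. In the mitochondrial path, BH3-only proteins neutralise anti-apoptotic BCL-2 proteins, Bak1 and Bax open the outer membrane, and cytochrome c assembles Apaf1 and Casp9 into the apoptosome. Death receptors act through Casp8. Young neurons rely on this path for developmental cell death, and the BH3-only genes Bcl2l11 and Hrk are known to rise in neurons deprived of trophic support.

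All cells were of strain 129SvEv, and 28 arrays fell into 12 groups. Cells that were wild type or Top2β knockout, which lack a type II DNA topoisomerase that is prominent in postmitotic neurons, were taken as ES cells, as Neuronal Progenitor cells (NP) and as neurons at TN day 2, with 2 arrays per genotype and stage, and at TN day 6, with 3 arrays per genotype. Neurons at TN day 5 had DMSO, the solvent, or ICRF-193, a catalytic inhibitor of type II topoisomerases (2 arrays each), and so had cortical glutamatergic neurons isolated from E16.5 (3 arrays each). The labels give 50 µM ICRF-193, made fresh every 24 h between TN day 2 and TN day 5, as one text for all samples, and do not say when the cortical neurons were treated. TN is not spelled out, the genotype of the drug-treated cells and the knockout allele or number of clones are not given, and nothing says that replicates were separate cultures or animals, so the p-values speak of differences between arrays, which may be technical.

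Top2b was lower in every knockout group, and no knockout array reached a wild-type array of its stage: 5.79 and 7.11 against 7.52 and 7.96 in ES cells, 6.77 and 6.89 against 9.10 and 9.17 in NP, 8.94 and 8.99 against 11.35 and 11.40 at TN day 2, and 8.68 to 9.04 against 11.15 to 11.32 at TN day 6 (log2 values). Whether its probes lie in the deleted part is not known here. Array medians over all 35556 probe sets ran from 6.12 to 6.43. Arrays of a group correlated at 0.990 to 0.997 over all genes, except the 2 ES knockout arrays at 0.967. Levels of single markers followed the labels. Pou5f1, a pluripotency factor, was at 11.27 in wild-type ES cells and between 4.22 and 5.30 in the wild-type groups after them. Tubb3, a neuronal tubulin, was at 7.51 and 12.21 in wild-type ES cells and at TN day 6. Tbr1, of cortical glutamatergic neurons, was at 10.14 in DMSO-treated cortical neurons but at 5.10 to 5.35 in the wild-type and DMSO neurons of the TN stages. Other marker lists were less clear-cut, counting means above 6.7, the limit for dim genes used below. In DMSO-treated cortical neurons 4 of 4 measured glutamatergic and 5 of 5 GABAergic markers were above it. At TN day 6 in the wild type 1 of 4 and 3 of 5 were. In wild-type ES cells 6 of 8 mesenchymal markers were above it, and 5 of 8 in NP.

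Levels of the 35 genes are log2 values of 1 probe set each, so a gene is compared with itself across groups and not with another gene. Of the 35 genes, 21 were above the array's median over the 19938 genes on all 28 arrays. Only 2, Fas and Dram1, were above that median on no array. The limit for dim genes used here was 6.7, and 32 of the 35 had at least 1 group mean above it. Trp73, a relative of p53, joined Fas and Dram1 below it in every group. The death receptor Tnfrsf10b spanned the widest range of group means, from 5.42 in DMSO-treated cortical neurons to 10.47 in wild-type ES cells. Perp, a membrane protein that takes part in cell adhesion and apoptosis, spanned 4.79, the stress kinase gene Plk3 spanned 4.28, Casp8 spanned 4.26 and the receptor gene Eda2r spanned 4.05 on the log2 scale. Ei24, an autophagy gene of the endoplasmic reticulum, varied least, from 9.78 to 10.24.

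**Figure D1:**
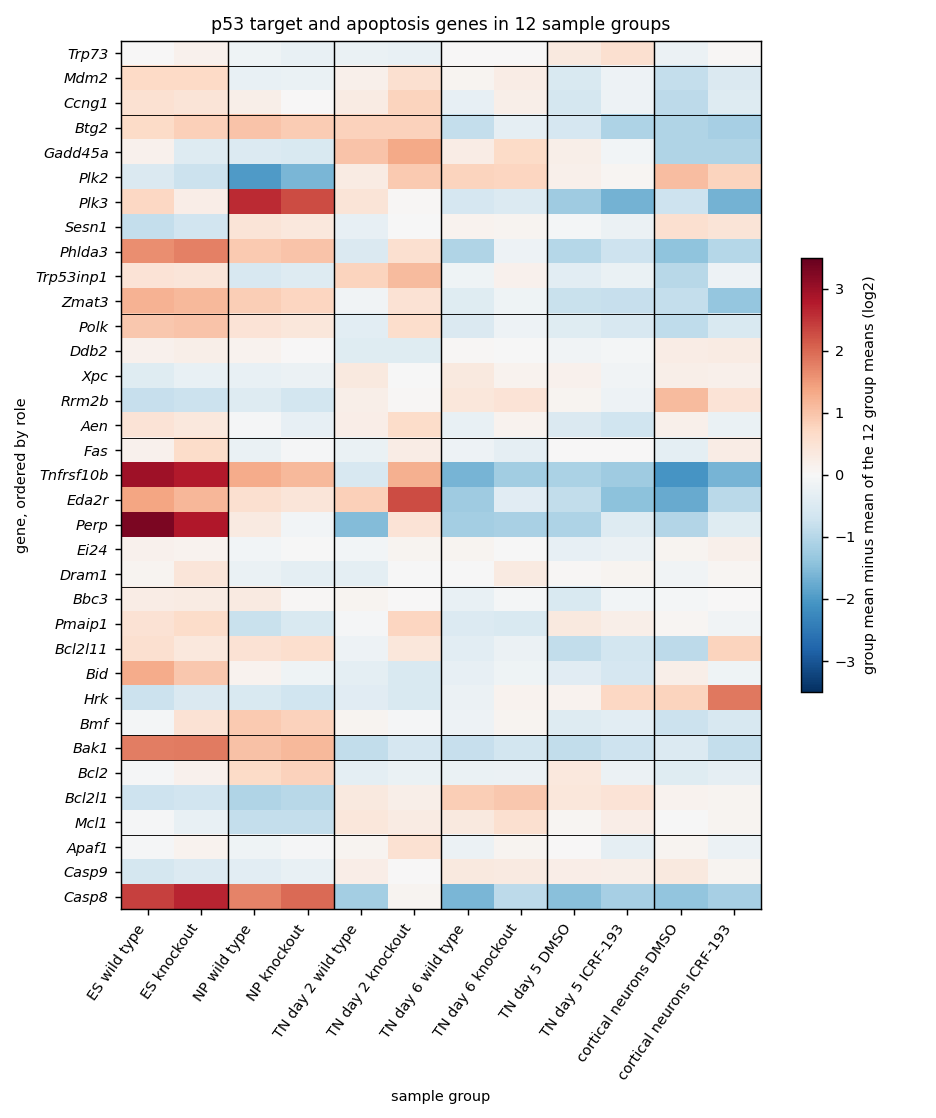
Group means of the 35 measured genes (rows, ordered by role) in the 12 sample groups (columns), each as the difference from the mean of that gene's 12 group means on the log2 scale; red is above and blue below that mean. Tnfrsf10b, Perp and Casp8 are higher in ES cells than in any neuron group, Hrk is highest in cortical neurons with ICRF-193, and Rrm2b in those with DMSO.

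Promoter windows from RefSeq (GRCm38.p6), from 250 bases before to 50 bases after each annotated gene start, were available for 30 of the 38 genes, of which 27 were measured. They were searched on both strands for the p53 half-site, the 10-base element of which a full response element holds 2. A half-site lay in the windows of 11 of these 30 genes (36.7%, exact 95% interval 19.9% to 56.1%, counting error only), against 2582 of 27025 genes in the whole table (9.55%). The genes were chosen as p53 targets or death genes, so this share is a description of the list. Allowing 1 mismatch outside the core brought the shares to 56.7% and 42.8%. Within the windows, 2 half-sites at most 13 bases apart were found in 1 gene of the list, Cdkn1a, and in 20 genes in all (0.074%). Among measured genes the half-site was in Mdm2, Ccng1, Gadd45a, Sesn1, Polk, Aen, Ei24 and Bmf. The sequences below show Mdm2, Ccng1, Polk and Aen, which were all higher in knockout neurons at TN day 2, and Ei24, which passed the test in no knockout or drug comparison; Gadd45a, Sesn1 and Bmf hold the half-site too and were not called in one either. Of the other genes called at TN day 2, Plk2, Phlda3, Eda2r, Bcl2l11 and Casp8 had windows without these letters, and Perp, Tnfrsf10b, Pmaip1, Zmat3 and Trp53inp1 had no window in the table. Each is read on the gene's strand and the half-site is in capitals; counted from the annotated start, it begins at -186, -185, -231, -121 and -10.
Mdm2, chr10:117710890-117710989, minus strand: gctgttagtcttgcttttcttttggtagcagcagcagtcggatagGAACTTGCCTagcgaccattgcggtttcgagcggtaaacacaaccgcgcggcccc
Ccng1, chr11:40755417-40755516, minus strand: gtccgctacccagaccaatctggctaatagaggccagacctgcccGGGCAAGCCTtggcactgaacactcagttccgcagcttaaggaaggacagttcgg
Polk, chr13:96519364-96519437, minus strand: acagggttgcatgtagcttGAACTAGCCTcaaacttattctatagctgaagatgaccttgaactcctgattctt
Aen, chr7:78895927-78895956, plus strand: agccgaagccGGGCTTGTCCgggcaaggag
Ei24, chr9:36797335-36797389, minus strand: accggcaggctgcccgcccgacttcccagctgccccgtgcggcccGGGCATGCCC
A match is a description of the letters in this window and not a measured binding site.

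During wild-type differentiation many genes of the list fell as ES cells became NP. From ES cells to NP, 4 of the 35 genes rose and 17 fell (limma, adjusted p under 0.05); of all genes 21.7% rose and 24.5% fell, and the median change was -0.34 for the list against 0.05 for all genes. From NP to TN day 2, 11 rose and 14 fell, against 21.6% and 26.6% of all genes. From TN day 2 to TN day 6, 3 rose and 11 fell, against 16.7% and 11.9%; without the first or the second TN day 6 array 9 genes of the list were called in this step in place of 14. These comparisons share the wild-type arrays with the knockout comparisons. In bulk RNA, fewer cells of a type and less RNA per cell cannot be told apart. With array medians set equal, 5260 genes rose and 4047 fell from NP to TN day 2 in place of 4299 and 5310.

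Among the feedback genes, Mdm2 went from 9.99 and 10 in wild-type ES cells to 9.06 and 9.02 in NP, then to 9.49 and 9.47 at TN day 2. It fell by 0.96 ± 0.12 (SE) in the first step and rose by 0.44 ± 0.12 in the second. Ccng1, the cyclin G1 gene and a feedback regulator of p53, was at 11.80 and 11.71 in ES cells and at 10.97, 10.94 and 10.93 at TN day 6. Its fall of 0.57 ± 0.12 came between TN day 2, where its arrays were at 11.26 and 11.76, and TN day 6 (adjusted p = 0.000707). Without the second TN day 2 array this change was -0.32 and did not pass. Its smaller fall from ES cells to NP, 0.33 ± 0.13 (adjusted p = 0.0386), did not pass with array medians set equal (adjusted p = 0.0512), with quantile normalization, or without any 1 of the 4 arrays. Both genes were thus lower in wild-type neurons than in ES cells by group mean.

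The growth arrest genes did not run in parallel. Plk2, a stress-induced kinase also known for scaling synapses, was at 9.61 and 9.50 in ES cells, 8.31 and 7.84 in NP, 10.10 and 10.61 at TN day 2 and 10.78 to 10.85 at TN day 6. Plk3 ran the other way, at 9.12 and 9.10 in ES cells, 11.04 and 10.95 in NP, 9.19 and 8.50 at TN day 2 and 7.66 to 7.89 at TN day 6. Trp53inp1, whose product promotes p53 activity and autophagy, fell by 1.03 ± 0.10 into NP, rose by 1.33 ± 0.10 into TN day 2 and fell by 0.92 ± 0.09 into TN day 6. Plk2, Trp53inp1 and Gadd45a thus shared a low point in NP, where Plk3 peaked. Gadd45a, a growth arrest gene induced by DNA damage, rose by 1.48 ± 0.17 from NP to TN day 2. Btg2, an antiproliferative gene, stood at 9.34 and 8.62 at TN day 2 and at 7.40, 7.51 and 7.11 at TN day 6, and fell by 1.64 ± 0.19. Sesn1, a sestrin that restrains mTORC1, rose by 1.30 ± 0.17 into NP. Phlda3, which blocks Akt at the membrane, and Zmat3, which encodes an RNA-binding protein, both fell into NP and again into TN day 2. The fall of Phlda3 into NP did not pass without any 1 of the 4 arrays, and that of Zmat3 did not with quantile normalization, without the first ES array or without the second NP array.

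Perp, Tnfrsf10b, Eda2r and Casp8 fell during the course, while Fas, Ei24 and Dram1 passed the test in none of the 3 steps. Perp was at 10.52 and 10.30 in wild-type ES cells, 7.58 and 7.32 in NP and 5.12 and 6.12 at TN day 2. Tnfrsf10b was at 10.50 and 10.44 in ES cells, 8.91 and 8.69 in NP, 6.18 and 7.72 at TN day 2 and 5.82 to 5.94 at TN day 6. Casp8, the initiator caspase of death receptors, was at 7.96 and 8.34 in ES cells, 7.71 and 7.27 in NP and 4.07 and 5.02 at TN day 2. It fell by 2.94 ± 0.40 from NP to TN day 2 (adjusted p = 2.2e-06). Perp, Tnfrsf10b and Casp8 were thus lower on every neuronal array than on every NP array of the wild type. Eda2r, the ectodysplasin A2 receptor, fell mainly later, by 2.09 ± 0.24 from TN day 2 to TN day 6, from 8.02 and 9.17 to 6.61, 6.47 and 6.44. The 2 wild-type arrays at TN day 2 lay far apart in Tnfrsf10b, Eda2r, Perp and Casp8, a point taken up with the knockout.

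In the mitochondrial path, anti-apoptotic genes rose in neurons while the pore former fell. Bcl2l1, which encodes BCL-XL, went from 8.15 and 8.11 in NP to 9.54 and 9.52 at TN day 2 and 10 to 10.12 at TN day 6, rises of 1.40 ± 0.09 and 0.54 ± 0.08. Mcl1 went from 9.84 and 9.78 in NP to 11.07 and 11.01 at TN day 2. Bcl2 went the other way, from 8.81 and 8.57 in NP to 7.56 and 7.78 at TN day 2. Bak1 was at 9.01 and 8.99 in NP and 7.19 and 7.06 at TN day 2, and fell by 1.88 ± 0.14. Of the BH3-only genes, Bcl2l11 fell by 0.69 ± 0.11 and Bmf by 0.82 ± 0.18 from NP to TN day 2, and Pmaip1 rose by 0.75 ± 0.17. Casp9 rose by 0.59 ± 0.13, from 7.88 and 7.79 to 8.57 and 8.28. Apaf1 passed the test in none of the 3 steps.

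In ES cells and in NP the knockout changed none of the 35 genes by the limma test. Of all genes, 0.0853% were called higher and 0.266% lower in knockout ES cells, and 0.381% higher and 0.246% lower in knockout NP, so few genes of any kind passed. At an unadjusted p under 0.05 there were 6 of the 35 genes and 2995 of all genes in ES cells, and 2 of the 35 and 1501 of all genes in NP. The median changes were 0.05 for the list and 0.01 for all genes in ES cells, and -0.09 and -0.02 in NP. The knockout effect did not differ between NP and ES cells for any of the 35 genes (0.16% of all genes called higher and 0.0953% lower), with 4 of the 35 genes and 2015 of all genes at an unadjusted p under 0.05.

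The 2 knockout ES arrays differed from each other in these genes. Casp8 was at 9.29 on one and 7.52 on the other, against 7.96 and 8.34 in the wild type; Bmf was at 8.34 and 7.50 against 7.29 and 7.36, and Fas was at 5.73 and 4.82 against 4.78 and 4.79. Without the second knockout array 11 of the 35 genes were called, 7 higher and 4 lower, and 5018 of all genes. The higher ones were Casp8 by 1.14, Bmf by 1.02, Fas by 0.94, Bcl2 by 0.67, Sesn1 and Dram1 by 0.55 each and Apaf1 by 0.46. Gadd45a fell by 0.99, Plk3 by 0.82, Bid by 0.59 and Mcl1 by 0.40 in that fit, which leaves 1 knockout array whose spread is assumed to equal that of the other groups. Without any 1 of the other 3 ES arrays none of the 35 genes was called. The log2 of the summed level of 8 mesenchymal markers was 13.85 on the first knockout array and 12.50 on the second, against 12.86 and 12.81 in the wild type, and its part in these values was not tested.

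At TN day 2, 14 of the 35 genes were higher in the knockout and none was lower, against 5.49% and 5.97% of all genes. The median change was 0.31 for the list and -0.04 for all genes. By role, both feedback genes, 4 of 8 growth arrest genes and 2 of 5 genes of the repair group (Polk and Aen) were higher. So were 3 of 6 receptor and membrane genes, 2 of 6 BH3-only genes and 1 of 3 apoptosome and caspase genes. The anti-apoptotic genes Bcl2, Bcl2l1 and Mcl1 changed by 0.10, -0.11 and -0.11 and did not pass. Arrays of the 2 genotypes did not overlap in 28 of the 35 genes, the 14 called ones among them, against 51.7% of all genes.

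The largest rises of the list were in Perp, Tnfrsf10b and Eda2r. Perp was at 5.12 and 6.12 on the wild-type arrays, against 7.28 and 7.95 on the knockout arrays, a rise of 1.99 ± 0.25 (adjusted p = 3.1e-05). Its wild-type arrays lay under 6.7 and near or below the array medians, so the size of this rise is uncertain. Tnfrsf10b, the mouse TRAIL receptor, was at 6.18 and 7.72 against 8.36 and 9.10, a rise of 1.78 ± 0.30 (3.45-fold, adjusted p = 0.000451). Eda2r was at 8.02 and 9.17 against 9.83 and 10.28, a rise of 1.46 ± 0.26 (2.75-fold, adjusted p = 0.00076). In all 3 the second wild-type array lay above the first and closer to the knockout. Casp8 was at 4.07 and 5.02 against 5.68 and 5.99, a rise of 1.28 ± 0.40 (adjusted p = 0.0418) that lay below the limit for dim genes in both groups. The call of Casp8 was lost in 7 of 13 alternatives.

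Among the feedback genes, Mdm2 was at 9.49 and 9.47 on the wild-type arrays, against 9.77 and 9.96 on the knockout arrays, a rise of 0.39 ± 0.12 (adjusted p = 0.0366). The call of Mdm2 was lost in 6 of 13 alternatives, among them array medians set equal. Ccng1 was at 11.26 and 11.76 against 11.97 and 12.04, a rise of 0.49 ± 0.13 (adjusted p = 0.0131). Both carry the half-site shown above. In the repair group, Polk, the translesion DNA polymerase kappa, was at 6.68 and 7.16 against 7.68 and 8.10, a rise of 0.97 ± 0.18 (adjusted p = 0.000945). Aen, an apoptosis-enhancing nuclease that was placed in this group here, was at 8.33 and 8.30 against 8.64 and 8.82, a rise of 0.42 ± 0.10 (adjusted p = 0.00872). The damage recognition genes Ddb2 and Xpc and the ribonucleotide reductase gene Rrm2b did not pass, so the repair group did not move as a whole.

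Of the growth arrest genes, Phlda3 was at 7.24 and 7.74 on the wild-type arrays, against 8.23 and 8.89 on the knockout arrays, a rise of 1.07 ± 0.24 (adjusted p = 0.00508). Plk2 was at 10.10 and 10.61 against 10.76 and 11.20, a rise of 0.62 ± 0.19 (adjusted p = 0.0353). Zmat3 was at 7.80 and 8.01 against 8.31 and 8.73, a rise of 0.61 ± 0.12 (adjusted p = 0.00243). Trp53inp1 was higher by less, at 11.12 and 11.18 against 11.40 and 11.60 (0.34 ± 0.10, adjusted p = 0.0295), and lost its call in 7 of 13 alternatives. Of the BH3-only genes, Pmaip1, which encodes Noxa, was at 6.64 and 6.67 against 7.05 and 7.81, a rise of 0.77 ± 0.17 (adjusted p = 0.00397). Bcl2l11, which encodes Bim, was at 7.99 and 7.97 against 8.42 and 8.69, a rise of 0.57 ± 0.11 (adjusted p = 0.00175). The wild-type pairs of these BH3-only genes lay close together, and their knockout pairs were further apart. Bbc3, which encodes Puma and is a classical p53 target, was at 7.09 and 6.88 against 6.78 and 6.99 and overlapped.

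**Figure D2:**
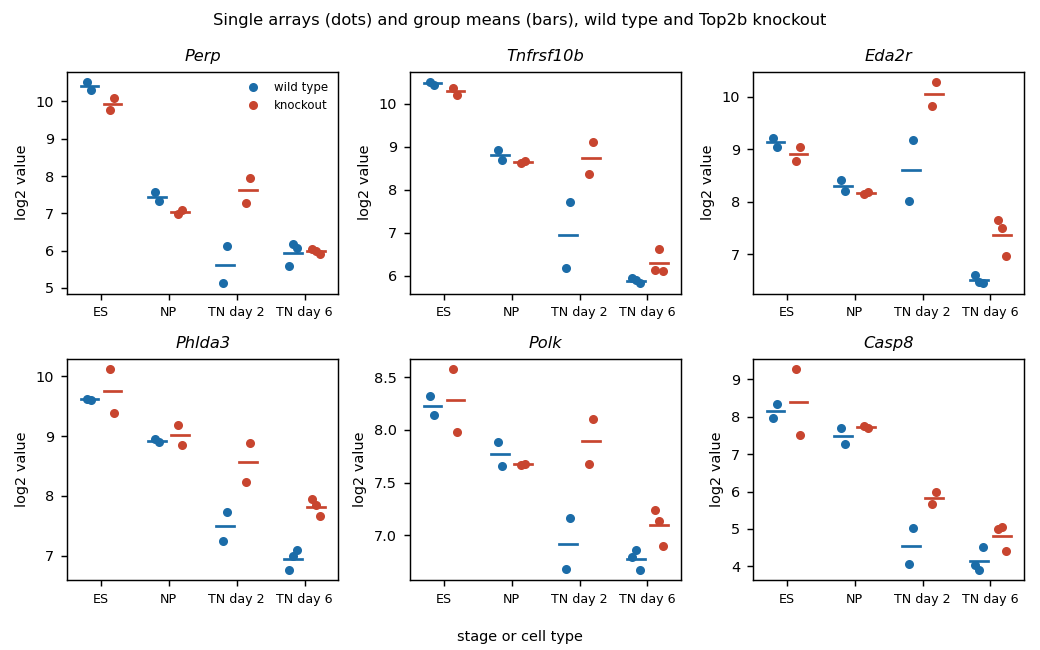
Log2 values of 6 genes on single arrays (dots) with group means (bars) in wild-type (blue) and Top2β knockout (red) cells at the ES, NP, TN day 2 and TN day 6 stages (x axis). In Perp, Tnfrsf10b, Eda2r, Phlda3, Polk and Casp8 the genotypes separate at TN day 2, where the 2 wild-type arrays also stand apart from each other.

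Some marker levels of other cell types differed with genotype and between single arrays at TN day 2. Of the 6 endothelial markers, 1 was higher, Kdr by 3.51 ± 0.48 (adjusted p = 7e-05; median of the 6 markers -0.01), and the log2 of their summed level was 8.27 and 8.62 in the wild type and 9.53 and 10.61 in the knockout; 1 of the 6 had a mean above 6.7 in the knockout and none in the wild type. Of the 8 mesenchymal markers, 3 were higher in the knockout (median change 1.29), and the log2 of their summed level was 10.93 and 13.02 on the first and second wild-type array and 13.26 and 13.71 on the knockout arrays; 7 of the 8 had a mean above 6.7 in each genotype. Of the 8 markers of proliferating cells 4 were higher (median 0.51; summed level 11.89 and 11.61 against 12.31 and 12.33), and of the 8 neuron markers 6 were lower (median -0.48; 14.58 and 14.55 against 14.20 and 13.91). Their part in the result was not tested. For 11 of the 14 genes the second wild-type array was above the first, and for all 14 the second knockout array was above the first. How many of all genes ran in this order was not counted. The mesenchymal and endothelial sums ran in the same order in both genotypes, and the neuron sums in the other. Without the first wild-type array 6 of the 35 genes were called, without the second 14 (12 higher and 2 lower), without the first knockout array 14 and without the second 3. Progenitor markers were split, with 1 of 8 higher and 2 lower. In the 4 fits that left out an array, Perp ranged from 1.49 to 2.49, Tnfrsf10b from 1.02 to 2.55 and Eda2r from 0.89 to 2.03, and they passed in each. With the spread taken from the 4 arrays compared alone, none of the 14 passed (Perp adjusted p = 0.0508, Polk 0.0767).

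The knockout effect at TN day 2 was tested against that in NP. It was larger at TN day 2 for 7 of the 35 genes and smaller for none, against 1.38% and 1.33% of all genes. These were Perp (difference 2.40 ± 0.36, adjusted p = 0.000998), Tnfrsf10b (1.94 ± 0.42, adjusted p = 0.0156), Eda2r (1.60 ± 0.37, adjusted p = 0.0206), Polk (1.06 ± 0.25, adjusted p = 0.0234), Zmat3 (0.72 ± 0.18, adjusted p = 0.0293), Aen (0.67 ± 0.14, adjusted p = 0.0134) and Ccng1 (0.67 ± 0.18, adjusted p = 0.0465). In NP itself the genotypes lay close together: Perp was at 7.58 and 7.32 in the wild type and 6.99 and 7.08 in the knockout, and Polk at 7.88 and 7.66 against 7.67 and 7.68. The other 7 genes called at TN day 2 were not shown to respond differently in the 2 stages. Leaving out any 1 of these 8 arrays left Perp called. Only Perp passed without the first knockout NP array or without the second knockout array of TN day 2. The count was 2 without the first wild-type NP array, the second knockout NP array or the first wild-type array of TN day 2.

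At TN day 6, 6 of the 35 genes were higher in the knockout and none was lower, against 5.38% and 4.80% of all genes. The median change was 0.18 for the list and 0 for all genes. With array medians set equal, 783 of all genes were higher and 1732 lower in place of 1072 and 958, and 5 genes of the list passed, 4 higher and Xpc lower. Without the first knockout array 3 genes passed. Of the 6 genes, 5 were also among the 14 called at TN day 2, from different arrays (83.3% of the 6 and 35.7% of the 14). Over all genes, 300 were higher at both stages, 28% of those at TN day 6 and 27.4% of those at TN day 2.

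Phlda3 was at 6.76, 7.0 and 7.09 on the wild-type arrays, against 7.95, 7.85 and 7.67 on the knockout arrays, a rise of 0.87 ± 0.20 (1.83-fold, adjusted p = 0.00444). Ccng1 was at 10.97, 10.94 and 10.93 against 11.54, 11.44 and 11.29, a rise of 0.48 ± 0.10 (adjusted p = 0.00322). Aen was at 7.83, 7.75 and 7.88 against 8.07, 8.32 and 8.20, a rise of 0.38 ± 0.08 (adjusted p = 0.00351). These 3 genes passed under all 15 alternatives, which include leaving out each array of this stage, with rises of 0.77 to 0.95, 0.38 to 0.54 and 0.28 to 0.44. Eda2r was at 6.61, 6.47 and 6.44 against 7.64, 7.49 and 6.97, a rise of 0.86 ± 0.21 (adjusted p = 0.0088) that did not pass without the first knockout array. Its wild-type arrays lay under 6.7. Trp53inp1 was at 10.14, 10.30 and 10.24 against 10.61, 10.61 and 10.41 (0.31 ± 0.08, adjusted p = 0.0156). Hrk, a BH3-only gene of neurons, was at 8.06, 7.93 and 8.05 against 8.32, 8.35 and 8.39 (0.34 ± 0.11, adjusted p = 0.0482). The genotypes did not overlap in 16 of the 35 genes, these 6 among them, against 32.8% of all genes. Trp53inp1 and Hrk lost the call with array medians set equal. Hrk also lost it with quantile normalization and without any 1 of the 6 arrays, and Trp53inp1 without the first wild-type or the first or second knockout array.

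Perp, Tnfrsf10b and Pmaip1, all called at TN day 2, were not called at TN day 6. Perp was at 5.58, 6.19 and 6.07 in the wild type and 6.03, 6.00 and 5.92 in the knockout, Tnfrsf10b at 5.94, 5.90 and 5.82 against 6.14, 6.61 and 6.12, and Pmaip1 at 6.18, 6.12 and 6.29 against 6.07, 6.13 and 6.27. All these values lay under 6.7 in both genotypes, so the size of any knockout effect at TN day 6 is uncertain. For these 3 genes the measured knockout effect was smaller at TN day 6 than at TN day 2. The difference was -1.95 ± 0.33 for Perp (adjusted p = 0.00103), -1.38 ± 0.39 for Tnfrsf10b (adjusted p = 0.0425) and -0.81 ± 0.21 for Pmaip1 (adjusted p = 0.0311). No gene of the list had a larger effect at TN day 6. The difference for Perp passed without any 1 of these 10 arrays, and 1 or 2 genes passed without any 1 TN day 6 array. Without the first wild-type array of TN day 2, the difference for Tnfrsf10b was -0.61 (adjusted p = 0.388) and did not pass; without the second, 9 genes passed, and without the first knockout array of that stage 6. Of all genes, 2.71% had a larger and 2.09% a smaller effect, a split of 540 and 417 that turned to 389 and 592 with array medians set equal.

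Markers of dividing cells and progenitors also stood higher in knockout neurons at TN day 6. All 8 measured markers of proliferating cells were higher (median 1.12; log2 of the summed level 9.39 to 9.59 in the wild type and 10.28 to 10.75 in the knockout), as were 5 of 8 progenitor markers (median 1.05; 11.41 to 11.54 against 12.41 to 12.71). Of the wild-type means, 2 of the 8 proliferation markers were above 6.7, and in the knockout all 8. No mesenchymal marker passed (median 0.41; 10.08 to 10.18 against 10.67 to 10.81). Of 5 neural crest and peripheral neuron markers 3 were higher and 1 lower (Prph by 1.31 and Tfap2a by -1.85; summed level 9.71 to 9.82 against 9.30 to 9.49). Of 5 oligodendrocyte lineage markers 2 were higher (Pdgfra by 2.20; 8.85 to 8.97 against 9.39 to 9.99), and so were 2 of 6 endothelial markers (Flt1 by 1.68; 8.28 to 8.35 against 8.59 to 9.13). Their part in the result was not tested.

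ICRF-193 at TN day 5 raised 3 of the 35 genes and lowered 1, against 2.51% and 6.37% of all genes. The median change was 0 for the list and 0.02 for all genes. Hrk was at 8.42 and 8.26 with DMSO against 8.75 and 9.14 with ICRF-193, a rise of 0.61 ± 0.13 (adjusted p = 0.00478). Ccng1 was at 10.44 and 10.76 against 11.11 and 11.02, a rise of 0.46 ± 0.13 (adjusted p = 0.0256). Bbc3 was at 6.29 and 6.36 against 6.81 and 6.76, a rise of 0.46 ± 0.14 (adjusted p = 0.0371), with the DMSO arrays under 6.7. Bcl2, an anti-apoptotic gene, was at 8.36 and 8.43 against 7.82 and 7.81, and fell by 0.58 ± 0.18 (adjusted p = 0.0463). The calls of Bbc3 and Bcl2 were each lost in 8 of 13 alternatives, among them leaving out any single array of this comparison. The groups did not overlap in 20 of the 35 genes, the 4 called ones among them, against 46.1% of all genes. None of the 4 passed with the spread taken from the 4 arrays alone, and 1 gene of the list was called without the first or the second DMSO array, 2 without the first and 3 without the second ICRF-193 array.

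Perp, at 6.06 on both DMSO arrays and 6.40 and 6.94 with ICRF-193, and Mdm2, at 8.77 on both and 8.83 and 9.38, did not pass, and in both the second ICRF-193 array lay well above the first. Progenitor and proliferation markers fell with the drug: 5 of 8 progenitor markers were lower (median -1.42; log2 of the summed level 11.08 and 12.11 with DMSO against 9.37 and 9.26 with ICRF-193), and 6 of 8 proliferation markers (median -0.69; 9.92 and 10.43 against 9.51 and 9.26). Of the mesenchymal markers 1 of 8 was lower (median -0.87; 11.78 and 12.23 against 11.14 and 10.97). Their part in the result was not tested. With quantile normalization 960 of all genes were higher and 1101 lower in place of 501 and 1271.

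In cortical neurons ICRF-193 raised 8 of the 35 genes and lowered 6, against 9.72% and 13.7% of all genes. The median change was 0.10 for the list and 0.04 for all genes. The groups did not overlap in 25 of the 35 genes, the 14 called ones among them, against 53.3% of all genes. Both feedback genes, 3 of 6 receptor and membrane genes and 2 of 6 BH3-only genes rose. The genes that fell were Plk3 and Zmat3 of the growth arrest group, Rrm2b and Aen of the repair group, the BH3-only gene Bid and the pore former Bak1. With array medians set equal the split of all genes turned to 3925 higher and 1952 lower from 1938 and 2726, the median of all genes moved to 0.14, and quantile normalization gave 2321 and 1990.

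The largest change in the list was in Bcl2l11, at 7.26, 7.29 and 7.18 with DMSO against 8.95, 9.01 and 8.84 with ICRF-193, a rise of 1.70 ± 0.09 (3.24-fold, adjusted p = 6.3e-12). Hrk was at 9.06, 8.97 and 8.92 against 10.11, 10.02 and 10.09, a rise of 1.09 ± 0.11 (2.13-fold, adjusted p = 1.2e-07). Trp53inp1 was at 9.32, 9.44 and 9.44 against 10.28, 10.24 and 10.14, a rise of 0.82 ± 0.08 (1.77-fold, adjusted p = 1.7e-07). In these 3 genes the arrays of a group differed by far less than the change. The other BH3-only genes did not rise: Bbc3 was at 6.79, 6.91 and 6.72 against 6.93, 6.63 and 7.15 and overlapped, and so did Pmaip1 and Bmf.

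Among the feedback genes, Ccng1 was at 10.36, 10.24 and 10.33 with DMSO against 10.74, 10.77 and 10.80 with ICRF-193, a rise of 0.46 ± 0.10 (adjusted p = 0.00261). Mdm2 was at 8.49, 8.44 and 8.48 against 8.79, 8.76 and 8.86, a rise of 0.33 ± 0.10 (adjusted p = 0.0165). Both groups of arrays were clear of each other in both genes. Of the receptors, Eda2r was at 5.83, 6.10 and 6.08 against 6.72, 6.71 and 7.01, a rise of 0.81 ± 0.21 (adjusted p = 0.00794). Its DMSO arrays lay under 6.7, so the size of this rise is uncertain. Perp was at 6.01, 6.27 and 6.01 against 6.69, 6.80 and 6.62 (0.61 ± 0.21, adjusted p = 0.0384), with the DMSO arrays under 6.7. Fas was at 4.03, 4.37 and 4.46 against 4.90, 4.83 and 4.91 (0.60 ± 0.18, adjusted p = 0.0196), all below 6.7. Mdm2 lost its call without the second DMSO or the third ICRF-193 array, Fas lost it with quantile normalization and without the first DMSO, the first ICRF-193 or the third ICRF-193 array, and Perp did when any 1 of 5 of the 6 arrays was left out.

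Of the genes that fell, Plk3 was at 7.64, 7.67 and 7.64 with DMSO against 6.83, 6.64 and 6.73 with ICRF-193, and fell by 0.92 ± 0.15 (adjusted p = 9.9e-05). Rrm2b, the p53-inducible subunit of ribonucleotide reductase, was at 8.22, 8.19 and 8.23 against 7.56, 7.46 and 7.67, and fell by 0.65 ± 0.15 (adjusted p = 0.00393). Zmat3 was at 7.18, 7.28 and 7.03 against 6.66, 6.70 and 6.66, and fell by 0.49 ± 0.10 (adjusted p = 0.00116). No array of one group reached the other in these genes. Aen was at 8.09, 8.29 and 8.36 against 7.87, 7.86 and 7.80, and fell by 0.40 ± 0.08 (adjusted p = 0.00114; -0.23 and adjusted p = 0.0736 with quantile normalization). Bid was at 7.60, 7.66 and 7.56 against 7.33, 7.14 and 7.28, and fell by 0.36 ± 0.10 (adjusted p = 0.0111). Bak1 was at 7.46, 7.58 and 7.44 against 7.05, 7.18 and 7.18, and fell by 0.35 ± 0.11 (adjusted p = 0.0268). The falls of Bid and Bak1 did not pass with array medians set equal or with quantile normalization. Bid also lost its call without the second ICRF-193 array, and Bak1 without any 1 of 5 of the 6 arrays. Calls under every alternative were those of Bcl2l11, Hrk, Trp53inp1, Ccng1, Eda2r, Plk3, Rrm2b and Zmat3.

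**Figure D3:**
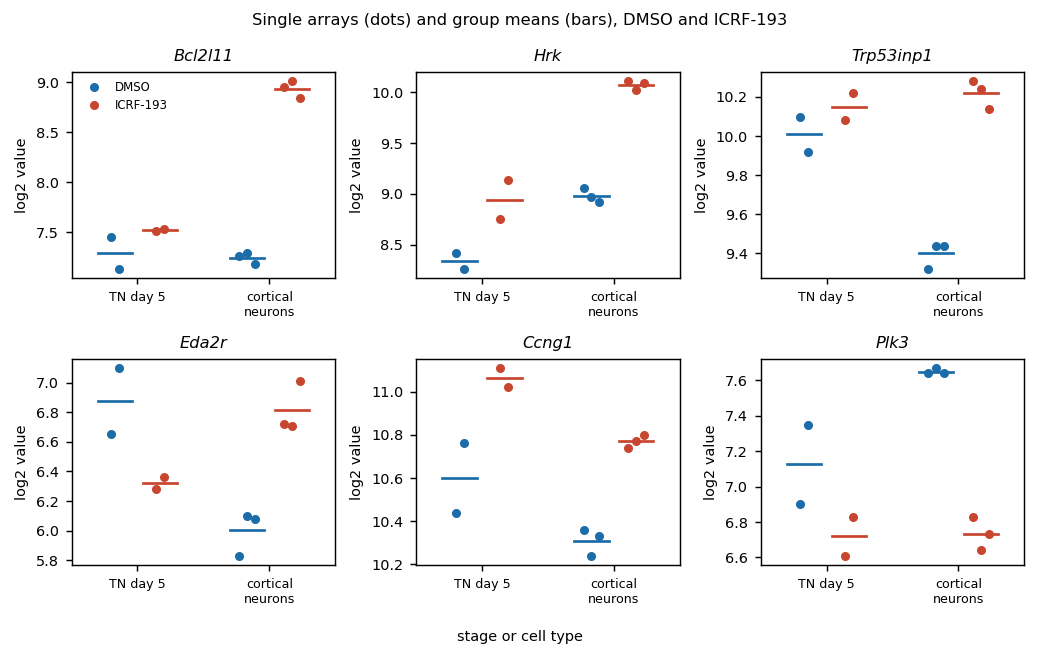
Log2 values of 6 genes on single arrays (dots) with group means (bars) after DMSO (blue) and ICRF-193 (red) in neurons at TN day 5 and in cortical neurons (x axis). Bcl2l11 rises by 1.70 in cortical neurons, and Eda2r is higher with the drug in cortical neurons but not at TN day 5.

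Most markers of astrocytes, of the oligodendrocyte lineage and of dividing cells were lower in ICRF-193-treated cortical neurons, and most microglia markers were higher. All 8 markers of proliferating cells were lower (median -1.31; log2 of the summed level 10.56 to 10.64 with DMSO and 9.18 to 9.30 with ICRF-193), with 8 of 8 means above 6.7 with DMSO and 1 with the drug. So were 5 of 8 progenitor markers (median -0.93; 12.90 to 12.94 against 11.34 to 11.40), 4 of 5 astrocyte markers (median -1.41; 10.29 to 10.47 against 8.74 to 8.86) and 4 of 5 oligodendrocyte lineage markers (median -0.74; 10.42 to 10.51 against 8.67 to 8.72). Of the 6 microglia markers 5 were higher (median 0.64; 9.01 to 9.05 against 9.73 to 9.86). Neuron markers moved less, with 1 of 8 higher and 4 lower (median -0.30). Their part in the result was not tested.

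The effect of ICRF-193 was tested between the 2 kinds of neuron, and 3 of the 35 genes responded more strongly in cortical neurons and none less, against 1.69% and 2.68% of all genes. These were Bcl2l11 (difference 1.47 ± 0.14, adjusted p = 6.8e-07), Eda2r (1.37 ± 0.33, adjusted p = 0.0174) and Trp53inp1 (0.69 ± 0.13, adjusted p = 0.00218). At TN day 5 Bcl2l11 was at 7.45 and 7.13 with DMSO against 7.51 and 7.53 with ICRF-193, Eda2r was at 6.65 and 7.10 against 6.28 and 6.36, and Trp53inp1 was at 10.10 and 9.92 against 10.08 and 10.22. Eda2r thus lay lower with the drug on both arrays at TN day 5, and higher on all 3 in cortical neurons. Its ICRF-193 arrays at TN day 5 and its DMSO arrays in cortical neurons lay under 6.7. With median centring 548 of all genes had a higher and 459 a lower effect in cortical neurons, in place of 336 and 535. The differences for Bcl2l11 and Trp53inp1 passed without any 1 of these arrays, and that for Eda2r did not without the second DMSO array (1.14, adjusted p = 0.106) or the first ICRF-193 array of TN day 5. The labels leave it unstated whether treatment times were the same.

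**Figure D4:**
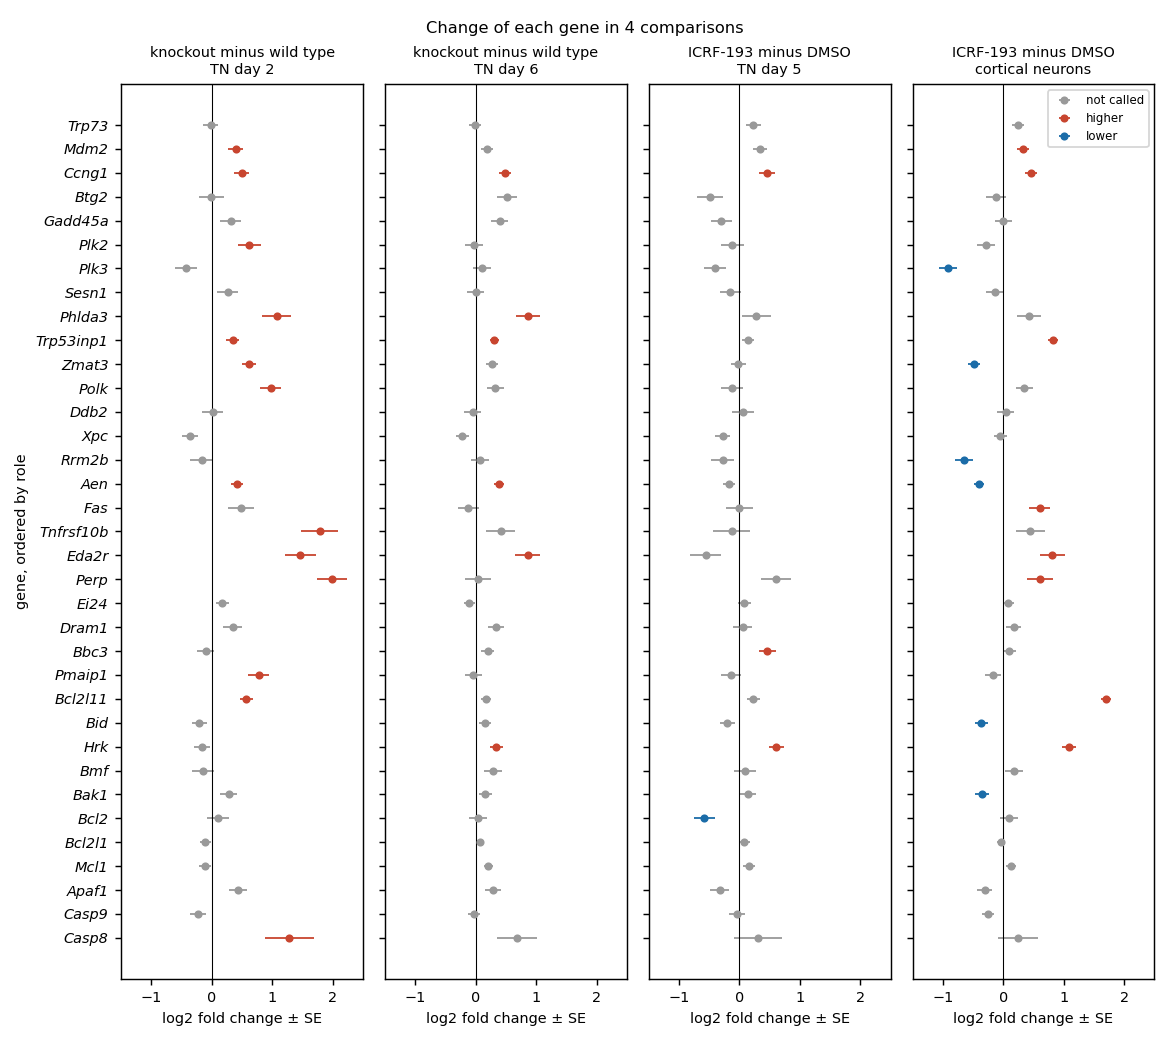
Log2 fold change with its SE (x axis) for each of the 35 genes (rows, ordered by role) in knockout against wild type at TN day 2 and TN day 6, and in ICRF-193 against DMSO at TN day 5 and in cortical neurons; red and blue mark genes called higher and lower at adjusted p under 0.05, grey those not called. All 14 genes called at TN day 2 and all 6 at TN day 6 are higher, and the 14 called in cortical neurons are 8 higher and 6 lower.

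The 6 main comparisons share no arrays. Across them 22 of the 35 genes were called at least once and 13 never, against 38% of all genes called at least once. Ccng1 was higher in 4 comparisons, with rises between 0.46 and 0.49 in each. Trp53inp1, Eda2r and Hrk were each higher in 3. Zmat3 and Aen were higher in knockout neurons at TN day 2 and lower in ICRF-193-treated cortical neurons. The 13 genes called in none were Trp73, Btg2, Gadd45a, Sesn1, Ddb2, Xpc, Ei24, Dram1, Bmf, Bcl2l1, Mcl1, Apaf1 and Casp9. Thus the apoptosome genes and 2 of the 3 anti-apoptotic genes passed in no knockout or drug comparison.

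Other genes of the pathway were read from 3 further lists. Of 25 other measured p53 targets, none was called in knockout ES cells or NP, 10 were higher and none lower at TN day 2 (median 0.50, against -0.04 over all genes, of which 5.49% were higher and 5.97% lower), and 4 were higher and none lower at TN day 6 (median 0.09, against 0 over all genes, of which 5.38% were higher and 4.80% lower). The largest at TN day 2 were Ephx1, a microsomal epoxide hydrolase, by 1.96 ± 0.39 (adjusted p = 0.0021), the thiamine transporter Slc19a2 by 1.14 ± 0.18 (adjusted p = 0.000215) and the ribosomal protein-like gene Rps27l by 1.09 ± 0.15 (adjusted p = 7.4e-05). At TN day 6 they were Abhd4 by 0.77 ± 0.14, Slc19a2 by 0.66 ± 0.14 and Psrc1 by 0.61 ± 0.17. ICRF-193 raised 1 and lowered 2 of the 25 at TN day 5, against 2.51% and 6.37% of all genes. These were Rps27l (-0.70 ± 0.15), Fbxw7 (-0.64 ± 0.13) and Trp53i11 (0.58 ± 0.14). In cortical neurons it raised 4 and lowered 5, against 9.72% and 13.7% of all genes. The largest changes there were in Fbxw7 (-0.85 ± 0.11), Abhd4 (-0.80 ± 0.14) and Zfp365 (-0.75 ± 0.17). Genes called under both the knockout and the drug did not all keep 1 direction. Rps27l, Abhd4 and Zfp365 (0.88 ± 0.21 in the knockout at TN day 2) rose with the knockout and fell with the drug. Tap1 rose by 1.03 ± 0.17 and Dcxr by 0.52 ± 0.12 in the knockout at TN day 2, and by 0.59 ± 0.14 and 0.72 ± 0.10 with ICRF-193 in cortical neurons.

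Of 24 regulators of p53 and DNA damage kinases, 4 were higher and 2 lower in the knockout at TN day 2, against 5.49% and 5.97% of all genes. At TN day 6, 3 were higher and 1 lower, against 5.38% and 4.8% of all genes. The checkpoint kinase gene Chek1 rose by 0.82 ± 0.15 and 0.60 ± 0.12 at these stages and Chek2 by 0.67 ± 0.21 and 0.74 ± 0.18, Cdkn2a rose by 0.67 ± 0.20 at TN day 2, and Brd7 fell by 0.43 ± 0.09 at TN day 6. With ICRF-193, Chek1 fell by 0.77 ± 0.15 at TN day 5 and by 0.99 ± 0.12 in cortical neurons. At TN day 5 Atr fell by 0.51 ± 0.15 and Atm by 0.44 ± 0.14. That made 3 lower and none higher, against 6.37% and 2.51% of all genes. In cortical neurons 3 were higher and 3 lower, among them Prkdc by -0.39 ± 0.13 and Trp53bp1 by 0.39 ± 0.07. Of all genes, 9.72% were higher and 13.7% lower there. Chek1 thus moved in the same direction as the proliferation markers in all 4 comparisons. In knockout NP 1 of the 24, Ppp1r13b, was higher, by 0.84 ± 0.13, against 0.381% of all genes. In ES cells none passed, where 0.0853% of all genes were higher and 0.266% lower.

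Of 31 other BCL-2 family and cell death genes, 1 was higher and 1 lower in the knockout at TN day 2, against 5.49% and 5.97% of all genes. Casp12 rose by 1.12 ± 0.33 and Dffa fell by 0.34 ± 0.11. At TN day 6 none was higher and 1 lower, against 5.38% and 4.8% of all genes. Tradd fell by 0.48 ± 0.13 there. ICRF-193 lowered 5 and raised none at TN day 5, against 6.37% and 2.51% of all genes. In cortical neurons it lowered 9 and raised 1 (median -0.11), against 13.7% and 9.72% of all genes. Casp6, an effector caspase, fell by 1.11 in both, with SEs of 0.23 and 0.19. Aifm1 fell by 0.39 ± 0.12 and Cycs, the cytochrome c gene, by 0.37 ± 0.11 at TN day 5. Birc5, which encodes the mitotic protein survivin, fell by 0.72 ± 0.15 and Bok by 0.62 ± 0.11 in cortical neurons. Of all genes called with the drug, more were also lower than higher in both kinds of neuron (501 higher and 1271 lower at TN day 5, and 1938 and 2726 in cortical neurons), and the split in cortical neurons turned with array medians set equal, as given above.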

How the data were processed

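The deposited table held log2 expression values of 35556 probe sets on 28 arrays, made by the authors; the submitters' processing notes name oligo 1.14.0. How probes were corrected and summarized, and the log base, are not stated in the sources used here; the values, from 1.963 to 13.993, were read as log2. Extraction and labelling followed an RNeasy kit and the Affymetrix whole-transcript assay, per the labels' protocols. Probe sets with 1 gene symbol (21789) were kept, 1 per gene (19938 genes); 1621 with several symbols and 12146 with none were left out. No further normalization was applied. A linear model of 12 group means over all 28 arrays was fitted with limma 3.58.1 in R 4.3.3 (16 residual and 4.87 prior degrees of freedom), with Benjamini-Hochberg adjustment over all genes of a comparison and calls at adjusted p under 0.05. Errors of changes are limma standard errors. Tests were two-sided and were tested on simulated data. The number of arrays limits the precision. The alternatives were array medians set equal (median centring), quantile normalization, the mean of all probe sets of a gene, leaving out genes under 6.7 in every group, the arrays compared alone, array weights, a trended robust fit, a replicate block and leaving out each array. Members, gene lists and tests were chosen with earlier results of these data known. All 35 measured members were accounted for, values per array were given for those called, and the text names up to 3 genes per further list by size of change.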

Additional observations from a re-analysis of the deposited data

Results flagged for a closer look

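The change differed between stages or cell types, by limma's test of the difference itself, for 13 gene and contrast pairs. The knockout effect was larger at TN day 2 than in NP, on the log2 scale, by 0.67 for Ccng1, 0.72 for Zmat3, 1.06 for Polk, 0.67 for Aen, 1.94 for Tnfrsf10b, 1.60 for Eda2r and 2.40 for Perp. It was smaller at TN day 6 than at TN day 2, with differences of -1.38 for Tnfrsf10b, -1.95 for Perp and -0.81 for Pmaip1. All values of these genes at TN day 6 lay under 6.7, so the size of these differences is uncertain. The ICRF-193 effect was larger in cortical neurons than at TN day 5 by 0.69 for Trp53inp1, 1.37 for Eda2r and 1.47 for Bcl2l11. The 2 wild-type arrays of TN day 2, which enter the first 10 differences, were at 6.18 and 7.72 in Tnfrsf10b and at 5.12 and 6.12 in Perp.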

How the results depend on the processing

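No called change reversed its direction under any alternative. With only the arrays compared, the number of the 35 genes called went from 14 to 0 at TN day 2, from 6 to 10 at TN day 6 and from 4 to 0 for ICRF-193 at TN day 5. Array weights gave 14 at TN day 6, 2 at TN day 5 and 22 (13 higher and 9 lower) in cortical neurons, where 14 were called. Leaving out single arrays gave 0 to 11 called genes in ES cells (11 without knockout replicate 2), 3 to 14 at TN day 2 (3 without knockout replicate 2), 3 to 7 at TN day 6 (3 without knockout replicate 1), 1 to 3 for ICRF-193 at TN day 5, 10 to 13 in cortical neurons and 9 to 12 for wild-type cells from TN day 2 to TN day 6. For differences between effects it gave 0 to 5 (NP minus ES), 1 to 9 (TN day 2 minus NP), 1 to 9 (TN day 6 minus TN day 2) and 2 to 4 (cortical neurons minus TN day 5). Deviations of same-numbered arrays correlated between -0.23 in NP and 0.379 for ICRF-193 against DMSO at TN day 5. The main fit did not take the numbers as pairs in any comparison, and whether the TN day 5 arrays were paired is not known. The replicate block left 2 called genes for ICRF-193 at TN day 5 against 4. A crossed block, added after the data were seen for the negative correlation in NP, gave 0 in NP, as did the fit without it. In the knockout and drug comparisons the replicate block ended the calls of Mdm2, Trp53inp1 and Casp8 at TN day 2, of Hrk at TN day 6 and of Bbc3 and Bcl2 at TN day 5, and of no other gene of the list. Over all genes, the counts called went from 70 to between 0 and 5018 in ES cells, from 125 to between 37 and 251 in NP, from 2284 to between 315 and 2670 at TN day 2, from 2030 to between 1394 and 3816 at TN day 6, from 1772 to between 385 and 2291 at TN day 5 and from 4664 to between 3321 and 8967 in cortical neurons. The causes were not tested. Fas, Dram1 and Trp73 in every group, Casp8 in every neuron group, and, among others, Perp, Tnfrsf10b, Pmaip1 and Eda2r in some groups (6, 6, 6 and 3 of 12) lay under 6.7, where signal over background limits what can be read.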
